A study of Mus musculus with 17 samples.

Results

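The sarcomeric myosin light chains are the small subunits that wrap the lever arm of each myosin head in striated muscle. The genes described here are the 7 measured under the symbols Myl1, Myl2, Myl3, Myl4, Myl6b, Myl7 and Mylpf, out of 12393 genes with a symbol of their own on the array. They were chosen by symbol: every probe set, a group of short probes for one transcript, that the array's annotation ties to exactly 1 of these symbols was kept, which gave 10 probe sets. Myl3 had 3 probe sets, Myl4 had 2 and the other genes had 1 each.

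Each myosin heavy chain carries 1 essential and 1 regulatory light chain. The essential chain stiffens the lever arm and touches actin, and the regulatory chain is phosphorylated to tune force. Muscles choose between isoforms: Myl1 (essential) and Mylpf (regulatory) serve fast fibres, Myl3 (essential) and Myl2 (regulatory) serve slow fibres and the heart ventricle, and Myl4 (essential) and Myl7 (regulatory) serve the atrium. Myl4 is also the essential chain of embryonic skeletal muscle, present in newly formed fibres and switched off as they mature. Myl6b is an essential chain related to those of slow and of non-muscle myosin.

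The muscle was the tibialis anterior of the shin, which is made mostly of fast fibres, and its RNA was hybridised to 17 Affymetrix arrays, 1 per sample. The groups were fiona (5 arrays), a transgenic line with a high level of utrophin on the mdx background, mdx (6 arrays), the mouse that lacks dystrophin, and normal mice (6 arrays). All mice were labelled male, were 56 days old and gave 1 pool of left and right muscle each, of which 8 µg of RNA was labelled. Fiona mice share the dystrophin defect with mdx mice and differ from them by the transgene, a form of utrophin, the protein most like dystrophin. The promoter of the transgene and the strain of the normal mice are not given in the sources used here, and the labels call the samples biological replicates. Values are log2 expression as deposited. The comparisons ask how the light chains differ when dystrophin is missing, and how they stand when utrophin is added.

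The dystrophin and utrophin probe sets fitted the groups in part. The Dmd probe set 1417307_at averaged 3.39 ± 0.14 in fiona, 3.35 ± 0.10 in mdx and 6.64 ± 0.20 in normal muscle (SD). Dmd 1448665_at averaged 5.04 ± 1.05, 5.33 ± 0.77 and 8.34 ± 0.77 in the same order. Dmd 1430320_at, at 3.28 ± 0.22, 2.99 ± 0.05 and 3.10 ± 0.13, did not show this gap. The Utrn probe set 1426892_at read 6.39, 2.68, 3.54, 7.02 and 3.02 on fiona arrays 1 to 5, and Utrn 1427569_a_at read 4.94, 3.04, 3.78, 7.28 and 2.48. Each stood above the level of the unspiked bacterial control probe sets on 4 of 5 fiona arrays and on 0 of 6 mdx and 0 of 6 normal arrays, with fiona 2 under it on the first and fiona 5 on the second. Fiona 2 and fiona 5 are named here by their labels. Utrn 1452222_at averaged 6.57 ± 0.82 in fiona, 6.98 ± 0.39 in mdx and 6.81 ± 0.26 in normal muscle. That control level, the median of 15 such probe sets on an array, was 2.64 to 2.99 and marks values that carry no evident signal. Array medians were 3.52 to 3.82. Of the 17 arrays, 7 carried the female pattern of Xist and Eif2s3y against their male label, namely fiona 1, 2, 3 and 5, mdx 1 and 4, and normal 6. The largest component of the differences within groups took 42.7% of that variance and parted the arrays into set 1 (fiona 1 and 4, and mdx and normal 3, 4 and 5) and set 2 (the others). Values without the 7 arrays, and within each set, are given where they end a call of Myl4 or Myl3. The sets come from the residuals of these same data, so a p within a set shows only which calls were kept there. A fit without fiona 2 and 5, added after seeing the data, stands beside the fiona results.

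In mdx muscle the embryonic and atrial essential chain Myl4 was far higher than in normal muscle, the slow essential chain Myl3 was lower, and no call was made for either fast chain. In fiona muscle Myl4 was low and Myl3 high against mdx muscle, and no light chain was called against normal muscle. A call means a Benjamini-Hochberg adjusted p under 0.05 from limma, a linear model fitted to all 22626 probe sets. In mdx minus normal 4 of the 10 probe sets passed, 1 higher and 3 lower, against 4.04% of all probe sets (2.73% higher and 1.3% lower). The 3 lower ones all belong to Myl3, so this count holds 1 gene 3 times. With 1 brightest probe set per gene, 2 of the 7 genes passed, Myl4 and Myl3, and 578 genes in all. In fiona minus mdx 5 of 10 passed, 4 higher and 1 lower, against 42.1% of all probe sets (36% higher and 6.08% lower), so this count lay near the background. Of the 4 higher ones, Myl6b and Myl7 were at or under the control level on every array. The split depends on how the arrays are scaled. On median-centred values 1 was higher and 1 lower, with 49.6% of all calls higher (1227 higher and 1246 lower), against 85.5% as deposited. On quantile-normalised values 1 was again higher and 1 lower, with 72.2% of all calls higher (2427 and 936). Without fiona 2 and 5 the fiona minus mdx count was again 5, with Myl4 1457126_at in place of Myl3 1427769_x_at. The groups did not overlap on 2 of 10 probe sets in mdx minus normal, on 2 of 10 in fiona minus mdx and on 0 of 10 in fiona minus normal, against 4.49%, 35% and 1.04% of all probe sets. At an adjusted p under 0.05 and a difference of at least 2-fold, 4 of 10 passed in mdx minus normal, against 2.22% of all probe sets, and 3 of 10 in fiona minus mdx, against 3.01%. In fiona minus normal limma called 0 of 10, against 0.00442% of all probe sets. There 2 of 10, Myl4 1457126_at and Myl6b, stood at an unadjusted limma p under 0.05, against 5154 of all 22626 probe sets. The first 2 comparisons share the mdx arrays, so their signs are not independent. Without the 7 arrays that went against their labelled sex the counts were 4, 1 and 1 in the same order, with a single fiona array left. The median difference of the 10 probe sets was -0.06, 0.17 and -0.01 on the log2 scale in mdx minus normal, fiona minus mdx and fiona minus normal, and that of all probe sets was -0.04, 0.08 and 0.04.

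**Figure D1:**
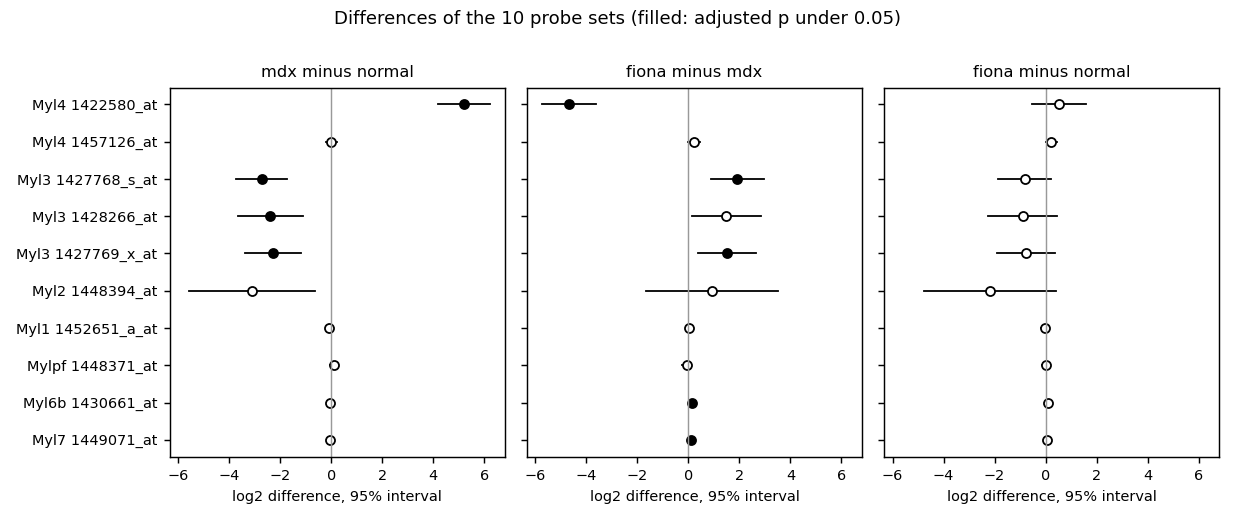
Difference of each of the 10 light chain probe sets (log2 units, with the 95% interval of the limma fit) in mdx minus normal, fiona minus mdx and fiona minus normal. Filled points have an adjusted p under 0.05. Myl4 1422580_at lies at 5.21, -4.68 and 0.53, the 3 Myl3 probe sets lie on the opposite side of 0 from it in each panel, and Myl1 and Mylpf lie within 0.09 of 0.

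Myl4 and Myl3 carried the differences of 2-fold or more that passed, and Myl7 is the regulatory partner of Myl4 in the atrium. Their promoters are shown for that reason, as 300 bases from 250 before to 50 after the start site, 5′ to 3′ on the strand of the gene, from RefSeq on the GRCm38.p6 build. All 7 genes matched, with 8 promoters. Capitals mark matches on either strand to an E-box (CANNTG, the site of MyoD family factors), an M-CAT element (CATTCC, the site of TEAD factors), the CArG box of serum response factor, the MEF2 site or a TATA box (TATAAA). Myl4 lies on the plus strand at chr11:104550413-104550712, Myl3 on the plus strand at chr9:110763428-110763727, and Myl7 on the minus strand at chr11:5898733-5899032.
Myl4: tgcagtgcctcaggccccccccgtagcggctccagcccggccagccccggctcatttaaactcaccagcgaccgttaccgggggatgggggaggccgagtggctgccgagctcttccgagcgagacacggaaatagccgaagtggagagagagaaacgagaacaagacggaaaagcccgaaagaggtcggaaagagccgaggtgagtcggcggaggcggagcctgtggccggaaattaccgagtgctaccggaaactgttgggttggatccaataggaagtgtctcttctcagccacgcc
Myl3: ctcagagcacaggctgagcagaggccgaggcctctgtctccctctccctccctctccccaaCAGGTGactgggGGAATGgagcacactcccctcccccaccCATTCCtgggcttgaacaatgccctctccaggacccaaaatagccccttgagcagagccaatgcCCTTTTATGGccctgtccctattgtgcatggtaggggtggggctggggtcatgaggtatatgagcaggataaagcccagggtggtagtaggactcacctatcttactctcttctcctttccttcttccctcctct
Myl7: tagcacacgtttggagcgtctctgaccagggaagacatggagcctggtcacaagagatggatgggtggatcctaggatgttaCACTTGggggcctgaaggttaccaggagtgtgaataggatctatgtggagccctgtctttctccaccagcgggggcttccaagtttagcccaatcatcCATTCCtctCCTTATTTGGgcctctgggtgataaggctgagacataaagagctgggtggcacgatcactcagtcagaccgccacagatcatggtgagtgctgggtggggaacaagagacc
The Myl4 window held 0 of the 5 motifs. The Myl3 window held a CArG box starting at base -85 from the start site, an E-box at -189 and M-CAT matches at -177 and -149. The Myl7 window held a CArG box at -61, an M-CAT match at -70 and an E-box at -168. No match overlapped another. Of 32851 mouse promoter windows of this length, 72.3% held an E-box, 14.7% an M-CAT element, 13.6% a TATA box, 3.19% a MEF2 site and 1.63% a CArG box. These matches are a description of the letters, and binding was not measured.

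Myl4 1422580_at had the largest difference of the 10 probe sets in mdx minus normal and in fiona minus mdx. It read 5.94, 6.30, 5.87, 4.79 and 6.62 on fiona arrays 1 to 5, against a lowest, median and highest value of 8.71, 10.90 and 11.86 in mdx and of 4.73, 5.32 and 6.20 in normal muscle. Every mdx array stood above every fiona and every normal array, and the fiona and normal ranges overlapped. The means were 5.90 ± 0.69 in fiona (SD, n = 5), 10.58 ± 1.08 in mdx and 5.37 ± 0.68 in normal muscle (n = 6 each). In a bulk extract such as this, a change in the number of cells of a type and a change in RNA per cell cannot be told apart.

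The mdx level was 37.0-fold that of normal muscle, a log2 difference of 5.21 (SE 0.47, 95% interval 4.20 to 6.22, limma adjusted p = 1.09e-05). The two-sided exact permutation test over arrays gave p = 0.00216, the smallest that 6 against 6 arrays allow. In fiona muscle the level fell by 4.68 on the log2 scale against mdx muscle (SE 0.50, limma adjusted p = 6.62e-05, exact permutation p = 0.00216, the smallest that 5 against 6 arrays allow). Fiona minus normal was 0.53 (95% interval -0.53 to 1.59, limma adjusted p = 0.518), so in the order mdx, fiona, normal the last 2 did not differ beyond their spread. Both calls held on leaving out any 1 array, and without the 7 arrays that went against their labelled sex mdx minus normal was 4.91 and fiona minus mdx -5.38, both called. Without fiona 2 and 5, fiona minus mdx was -5.05 (limma adjusted p = 0.000678). Within array sets 1 and 2 the mdx minus normal difference was 5.67 and 4.75, and the fiona minus mdx difference was -5.89 and -3.65, of which the last was not called in that set alone (limma adjusted p = 0.0614).

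A second Myl4 probe set, 1457126_at, did not show this. It read 3.94, 3.87, 4.01, 3.94 and 4.63 on fiona arrays 1 to 5, with lowest, median and highest values of 3.84, 3.86 and 3.87 in mdx and of 3.73, 3.89 and 3.91 in normal muscle. It was above the control level on every array, and the mdx range lay inside the normal range. Mdx minus normal was 0.00 (95% interval -0.21 to 0.21, limma adjusted p = 0.991). The files do not give the probes' positions in the transcript.

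**Figure D2:**
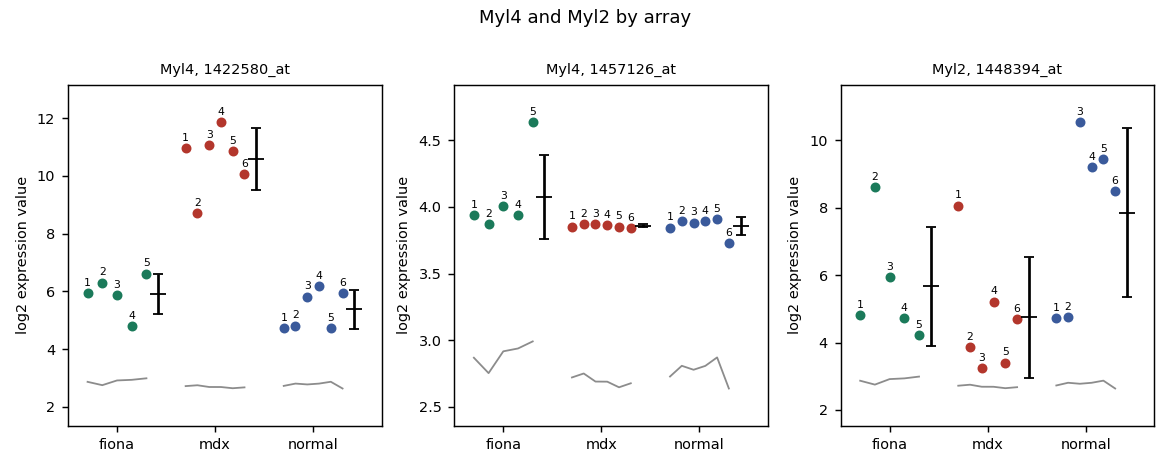
Log2 expression value of the 2 Myl4 probe sets and of Myl2 on each array. Points are arrays with their replicate number, bars are the mean ± SD of a group, and the grey line is each array's control level. Myl4 1422580_at is 8.71 or more on every mdx array and 6.62 or less on every fiona and normal array, Myl4 1457126_at spans 3.73 to 4.63, and Myl2 is high on normal 3 to 6, fiona 2 and mdx 1.

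Myl3, the slow and ventricular essential chain, moved the other way. Its probe set 1427768_s_at read 9.07, 10.54, 9.62, 8.09 and 9.46 on fiona arrays 1 to 5, against a lowest, median and highest value of 6.69, 7.13 and 9.26 in mdx and of 9.22, 10.19 and 10.91 in normal muscle. Mdx 1, at 9.26, stood among the fiona and normal arrays, and the other 5 mdx arrays lay below all of both groups. Fiona 4 was the lowest fiona array.

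Mdx minus normal was -2.73 on the log2 scale (SE 0.46, 95% interval -3.72 to -1.74, limma adjusted p = 0.00291, exact permutation p = 0.00433), so the normal level was 6.64-fold the mdx level. Fiona minus mdx was 1.91 (SE 0.49, 95% interval 0.87 to 2.95, limma adjusted p = 0.0120, exact permutation p = 0.0130), a 3.76-fold higher level in fiona. Fiona minus normal was -0.82 (95% interval -1.86 to 0.22, limma adjusted p = 0.298). In the order mdx, fiona, normal, from low to high, only the step between fiona and normal stayed within the spread. Both calls held on leaving out any 1 array, but the fiona call did not hold without the arrays that went against their labelled sex. With fiona 4 as the single fiona array left, fiona minus mdx was 0.92 (limma adjusted p = 0.322), while mdx minus normal was -2.91 and was still called. Without fiona 2 and 5, fiona minus mdx was 1.48 (limma adjusted p = 0.0494). Within array sets 1 and 2 mdx minus normal was -3.00 (limma adjusted p = 0.0338) and -2.46 (limma adjusted p = 0.123), and fiona minus mdx was 1.53 (limma adjusted p = 0.0872) and 2.03 (limma adjusted p = 0.241).

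The other 2 Myl3 probe sets had the same signs as the first in all 3 comparisons. Probe positions are not given, so whether these probe sets read the same stretch of the transcript, or other transcripts too, could not be checked. Myl3 1428266_at read 8.41, 9.77, 9.04, 5.84 and 9.04 on fiona arrays 1 to 5, against a lowest, median and highest value of 5.70, 7.17 and 8.45 in mdx and of 8.47, 9.27 and 10.19 in normal muscle. All mdx arrays lay below all normal arrays, and fiona 4 lay among the mdx arrays. Mdx minus normal was -2.39 (SE 0.60, limma adjusted p = 0.0352, exact permutation p = 0.00216), a call that held in 8 of 17 fits that each left out 1 array, with adjusted p up to 0.0810, and that was lost in array set 2 alone (-1.95, limma adjusted p = 0.0888). Fiona minus mdx was 1.49 (95% interval 0.15 to 2.83, limma adjusted p = 0.0688, exact permutation p = 0.0844), so it was not called. It turned to -0.99 without the arrays that went against their labelled sex, where only fiona 4 is left, and was 1.36 and called with the array set as a block (limma adjusted p = 0.0354).

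Myl3 1427769_x_at was dim, and by the array maker's naming the suffix x marks probes that can also match other sequences. It read 4.47, 6.13, 4.46, 3.23 and 4.46 on fiona arrays 1 to 5, against a lowest, median and highest value of 2.31, 2.81 and 4.83 in mdx and of 4.12, 5.32 and 6.25 in normal muscle. Mdx 4 and 5 were under the control level, and mdx 1 again stood with the normal arrays. Mdx minus normal was -2.28 (limma adjusted p = 0.0199, exact permutation p = 0.00649) and fiona minus mdx was 1.51 (limma adjusted p = 0.0358, exact permutation p = 0.0368). Without normal 5 the first had an adjusted p of 0.0506, and the second was called in 8 of 17 fits that each left out 1 array, with adjusted p up to 0.0903. The replicate numbers are not stated to mark a shared animal, litter or day. With the number as a block in the mdx and normal arrays alone, the mdx minus normal limma adjusted p was 0.0561. In array set 2 alone it was 0.230, at -2.15.

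The fiona minus mdx call of Myl3 1427769_x_at was kept in 4 of 12 alternatives. The difference was 1.38 on median-centred values (limma adjusted p = 0.105), 1.43 on quantile-normalised values (limma adjusted p = 0.0832), 1.57 with the replicate block (limma adjusted p = 0.0556) and 1.51 in a fit of the fiona and mdx arrays alone (limma adjusted p = 0.0610). It was 1.25 and 1.54 in array sets 1 and 2 (limma adjusted p = 0.181 and 0.242), 0.45 without the arrays against their labelled sex (limma adjusted p = 0.669) and 1.01 without fiona 2 and 5 (limma adjusted p = 0.190). With values raised to the control level, an alternative chosen after seeing the data, mdx minus normal was -2.16 (limma adjusted p = 0.0198) and fiona minus mdx 1.39 (limma adjusted p = 0.0325).

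**Figure D3:**
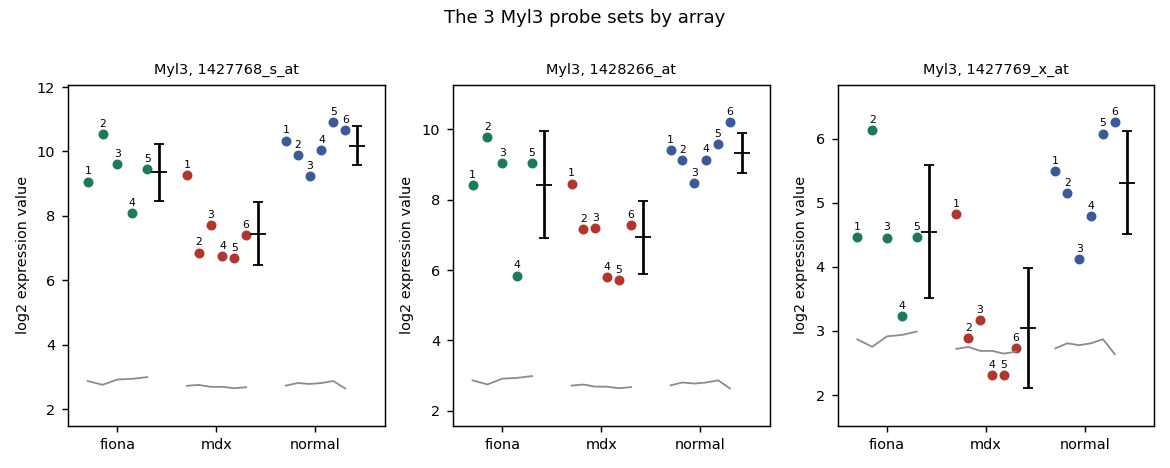
Log2 expression value of the 3 Myl3 probe sets on each array. Points are arrays with their replicate number, bars are the mean ± SD of a group, and the grey line is each array's control level. On 1427768_s_at all mdx arrays but mdx 1 (9.26) lie at 7.72 or less, below the lowest fiona array (8.09) and the lowest normal array (9.22).

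Myl2, the slow and ventricular regulatory chain, varied more within groups than any other light chain, with a range of 4.39 in fiona, 4.82 in mdx and 5.82 in normal muscle. It read 4.82, 8.62, 5.95, 4.73 and 4.23 on fiona arrays 1 to 5, 8.07, 3.87, 3.25, 5.22, 3.40 and 4.69 on mdx arrays 1 to 6, and 4.72, 4.75, 10.54, 9.21, 9.44 and 8.49 on normal arrays 1 to 6. Normal 1 and 2 were as low as most fiona and mdx arrays, while the other 4 normal arrays, fiona 2 and mdx 1 were high. Mdx minus normal was -3.11 (SE 1.15, 95% interval -5.57 to -0.65, limma adjusted p = 0.175, exact permutation p = 0.0303), which was not called. Fiona minus mdx was 0.92 (95% interval -1.66 to 3.50, limma adjusted p = 0.572) and fiona minus normal was -2.19 (95% interval -4.76 to 0.39, limma adjusted p = 0.270).

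Within the array sets the Myl2 differences were of unlike size. In set 1, mdx arrays averaged 3.96 and normal arrays 9.73, a difference of -5.77 with no overlap. In set 2, mdx arrays averaged 5.54 and normal arrays 5.99, a difference of -0.44. Fiona minus normal was likewise -4.95 in set 1 and 0.28 in set 2. Myl2 was called in mdx minus normal in the fit of array set 1 alone, with 3 mdx and 3 normal arrays. The sets were drawn from these data, so that call is not read as a result. The gap between the sets was not tested.

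Myl2 and Myl3 belong to the same slow myosin, yet their arrays did not line up throughout. Fiona 2 and mdx 1 were the highest of their groups on Myl2, and also on Myl3 1427768_s_at. Normal 1 and 2, the lowest normal arrays on Myl2, read 10.34 and 9.89 on that Myl3 probe set, within the range of the other normal arrays. Myh7, the slow and ventricular myosin heavy chain, is given beside it although Myl2 had no call. It read 6.94, 5.25, 3.85 and 4.97 on normal 3 to 6, 3.90 on mdx 1 and 3.27 on mdx 6, and at most 2.64 on the other arrays. Fiona 2, high on Myl2, read 2.54 on Myh7.

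The fast chains had no call in any comparison, and both lay near the top of the scale. On each array Myl1 was 0.16 to 0.68 and Mylpf 0.87 to 1.25 below the brightest probe set, so the range left above them is small. Myl1, the fast essential chain, read 15.00, 14.91, 14.90, 15.17 and 14.94 on fiona arrays 1 to 5, with lowest, median and highest values of 14.83, 14.90 and 15.11 in mdx and of 14.88, 15.02 and 15.18 in normal muscle. Mdx minus normal was -0.08 (95% interval -0.21 to 0.05) and fiona minus mdx was 0.04 (95% interval -0.10 to 0.18). Mylpf, the fast regulatory chain, read 14.06, 14.33, 14.49, 14.18 and 14.45 on fiona arrays 1 to 5, with lowest, median and highest values of 14.22, 14.36 and 14.48 in mdx and of 14.12, 14.30 and 14.41 in normal muscle. Its mdx minus normal difference was 0.09 (95% interval -0.07 to 0.25) and its fiona minus mdx difference was -0.08 (95% interval -0.24 to 0.09).

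All 3 groups overlapped on both genes, with limma adjusted p from 0.386 to 0.931. Under other scalings of the arrays the sign of the Myl1 differences turned, with fiona minus mdx at -0.08 on median-centred and -0.11 on quantile-normalised values. The Myl1 probe set carries the suffix a, which marks several transcripts of 1 gene, so the long and short Myl1 chains are not told apart.

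**Figure D4:**
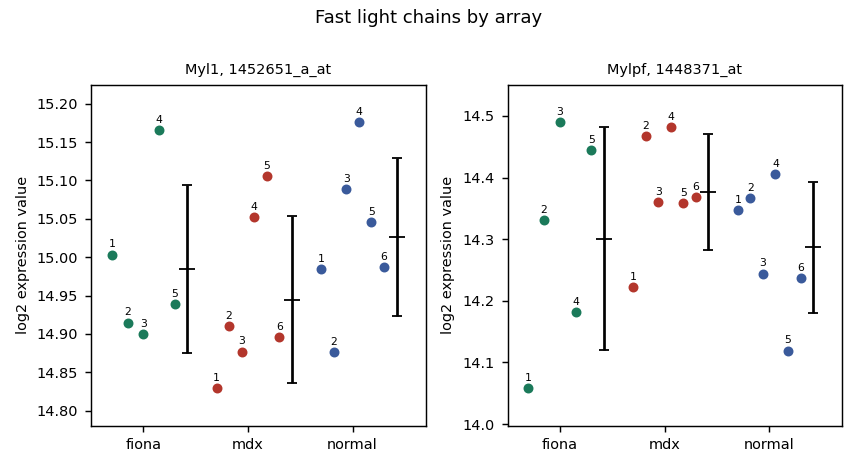
Log2 expression value of the fast light chains Myl1 and Mylpf on each array. Points are arrays with their replicate number and bars are the mean ± SD of a group, on axes that span under 1 log2 unit. Myl1 spans 14.83 to 15.18 and Mylpf 14.06 to 14.49. Fiona, mdx and normal arrays overlap on both genes.

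Myl7 and Myl6b gave no evident signal. Myl7 read 2.45 to 2.58 in fiona, 2.36 to 2.46 in mdx and 2.35 to 2.50 in normal muscle, and Myl6b read 2.55 to 2.73, 2.50 to 2.54 and 2.47 to 2.61 in the same groups. Both were at or under the control level on all 17 arrays. The atrial regulatory chain was therefore not detected in mdx muscle, where the atrial and embryonic essential chain Myl4 averaged 10.58. Both were called higher in fiona than in mdx, Myl6b by 0.12 (limma adjusted p = 0.0120) and Myl7 by 0.10 (limma adjusted p = 0.0243) on the log2 scale. Of the 5506 probe sets at or under the control level on all arrays, 72.4% were called in that comparison, with a median of 0.08. The control level itself was 2.75 to 2.99 on fiona and 2.65 to 2.75 on mdx arrays. With each array centred on its median, the differences were -0.000106 for Myl6b and -0.026 for Myl7. Without the arrays against their labelled sex neither was called (limma adjusted p = 0.0843 for Myl6b and 0.263 for Myl7), nor in array set 2 alone (0.242 and 0.287).

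The genes nearest to Myl4 over the 17 arrays, by the root mean square distance of the log2 profiles after taking off each gene's own mean, were Myh3 (0.538), Tnnt2 (0.567) and Tnni1 (0.598), out of 12386 genes, where Myl4 itself deviated by 2.50 from its mean. Myh3 is the embryonic myosin heavy chain, Tnnt2 the cardiac and embryonic troponin T, and Tnni1 the slow troponin I, which is also the isoform of developing fibres. Mdx 2 was the lowest mdx array for Myl4 and these 3 genes, at 8.71 for Myl4 and 8.19 for Myh3. Mdx 4 was the highest for Myl4 (11.86), Myh3 (11.45) and Tnni1 (9.79), and mdx 3 for Tnnt2 (10.38). Nearest to Myl3, which deviated by 1.40 from its mean, were Ldhb (0.722), the lactate dehydrogenase subunit of oxidative tissue, the phosphatase Dusp26 (0.795) and Dgat2 (0.856), an enzyme of triglyceride synthesis. Within 0.1 of Myl6b and Myl7 lay 3970 and 3913 genes.

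**Figure D5:**
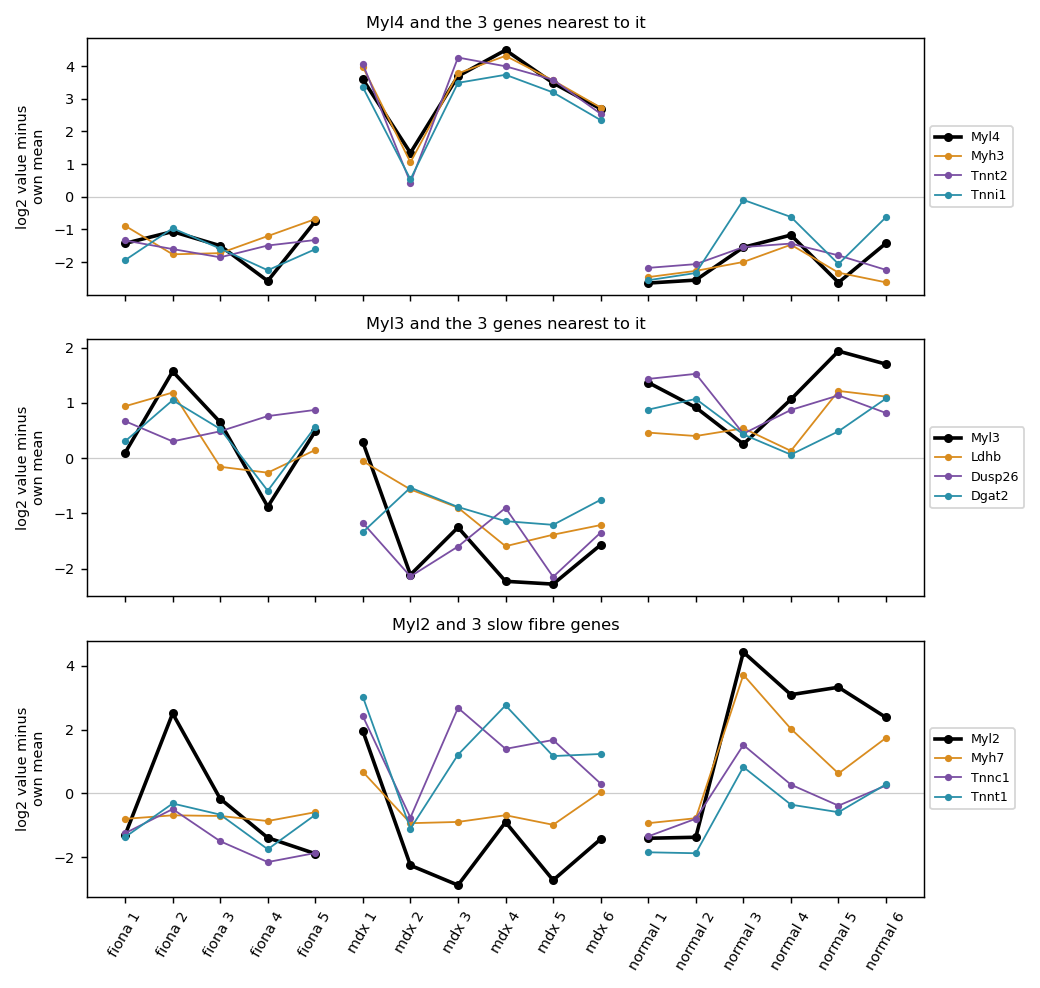
Log2 value minus the gene's own mean on each array, for Myl4 with its 3 nearest genes, Myl3 with its 3 nearest genes, and Myl2 with the slow fibre genes Myh7, Tnnc1 and Tnnt1, which were picked after their values were seen. Myl4, Myh3, Tnnt2 and Tnni1 are above their means on all mdx arrays, least so on mdx 2, and below them on all fiona and normal arrays. Myl2 and Myh7 are both high on normal 3 to 6, while Tnnc1 and Tnnt1 are also high on most mdx arrays.

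Among genes of developing and regenerating muscle, 8 of 14 were higher and 0 lower in mdx than in normal muscle, where 3.17% of all genes were higher and 1.33% lower. Their median difference was 2.55, against -0.04 over all genes. Myh3 differed by 5.42, Tnnt2 by 5.02, Igf2, a growth factor of myoblasts, by 3.90 and the myogenic factor Myog by 3.90. In fiona against mdx 10 of 14 were lower, where 33.9% of all genes were higher and 7% lower, and the median was -1.90. Fiona minus normal had 0 limma calls in this list, at a median of 0.24. That comparison called 0 of all 12393 genes higher and 0 lower, so the missing calls do not show a return to the normal level. At an unadjusted limma p under 0.05 stood 1 gene of the list, against 5154 of all 22626 probe sets. Igf2 differed by 1.26 (limma adjusted p = 0.202) and Myh3 by 0.94 (limma adjusted p = 0.233). Only Actc1 at -0.41 and Myf5 at -0.02 were negative.

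Slow fibre genes did not share one direction with Myl3. Of 12 measured, 2 were higher and 0 lower in mdx than in normal muscle: Tnni1 by 4.16 and Tpm3, the gene of slow tropomyosin, by 0.95. Over all genes 3.17% were higher and 1.33% lower. Tnnt1, slow troponin T, differed by 1.97 (limma adjusted p = 0.110) and Tnnc1, slow troponin C, by 1.36 (limma adjusted p = 0.243), both not called. Casq2 at 1.79, Atp2a2 at 1.46 and Csrp3 at 0.15 were positive too, without a call. The rest of the list had the sign of Myl3, also without a call. Myh7 differed by -1.53 (limma adjusted p = 0.235) and was above the control level on only 6 arrays. Myoz2 differed by -0.59, Smtnl1 by -0.44, Mb by -0.43 and Ankrd2 by -0.09. In fiona against mdx 5 were lower, Tnni1, Tnnt1, Tnnc1, Tpm3 and the slow calcium pump Atp2a2, and 1, the oxygen store myoglobin (Mb), was higher by 0.57. Over all genes 7% were lower and 33.9% higher in that comparison. The slow essential chain was thus low in mdx muscle while Tnni1 and Tpm3 were high. Tnni1 is also the isoform of developing fibres. Tnni1, Tnnt1 and Tpm3 were read by probe sets with the suffix a, which marks several transcripts of 1 gene. The slow form of Tpm3 was therefore not told apart from its other transcripts. The list's median difference was 0.55 in mdx minus normal and -0.53 in fiona minus mdx.

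Most fast fibre genes had no call in mdx minus normal. Some read near the level of Myl1, where the range left above is small. Tnni2 averaged 15.19 in mdx and 15.24 in normal muscle, and Tnnt3 14.89 and 15.03. For such genes a missing call does not show a steady level. Of 14 measured, 1 was lower and 0 were higher in mdx than in normal muscle, against 1.33% and 3.17% of all genes. The lower gene was Myh2, the myosin heavy chain of the oxidative fast 2A fibres, at -2.40 (limma adjusted p = 0.0333). It averaged 10.98 in mdx and 13.38 in normal muscle. In fiona it was 2.56 above mdx (limma adjusted p = 0.0120). There 2 of 14 were called higher and 0 lower, against 33.9% and 7% of all genes, so the higher count was not above the background. The list's median difference was -0.11 in mdx minus normal and 0.06 in fiona minus mdx. The list averaged 14.14 to 14.55 in fiona, 13.92 to 14.32 in mdx and 14.25 to 14.49 in normal muscle across arrays, so the markers of the labelled fast muscle were present on all arrays.

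The list of light chain phosphorylation and non-sarcomeric light chains also held Ppp1cb and Mylip, which are neither kinases nor light chains. Of its 9 measured genes, 0 were called by limma in any comparison. At an unadjusted limma p under 0.05 stood 2, 1 and 0 genes in mdx minus normal, fiona minus mdx and fiona minus normal. Of all 22626 probe sets, 3918, 11445 and 5154 did so in the same order. The medians of the list were -0.09, 0.03 and -0.27. The largest difference in mdx minus normal was that of Mylk2, the skeletal muscle kinase of the regulatory chain, at -1.02 (limma adjusted p = 0.125). The smooth and non-muscle chains Myl9 and Myl6 differed by -0.09 (limma adjusted p = 0.895) and 0.17 (limma adjusted p = 0.594). Of 14 measured factors that act on light chain promoters and enhancers, only Myog was called in mdx minus normal, and Myog (lower) and Prox1 (higher by 0.12, on values of 2.36 in fiona and 2.25 in mdx) in fiona minus mdx. Unadjusted limma p under 0.05 was reached by 8, 3 and 3 of the 14 in mdx minus normal, fiona minus mdx and fiona minus normal. Among the 8 were Myod1 at 2.30 (limma adjusted p = 0.0676) and Mef2d at -0.42 (limma adjusted p = 0.0903), both not called. The medians of the 14 factors were -0.11 and 0.06 in mdx minus normal and fiona minus mdx. Over all genes 3.17% were higher and 1.33% lower in mdx minus normal, and 33.9% and 7% in fiona minus mdx. In fiona minus normal 0 genes were higher and 0 lower. Sox6, a repressor of slow fibre genes, differed by -1.27 in mdx minus normal (limma adjusted p = 0.231), which was not called. Within each group it read higher on every array of set 1 than on every array of set 2. In mdx it read 7.91 to 8.55 in set 1 and 5.57 to 7.29 in set 2. The part of Sox6 in the light chain differences was not tested.

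Macrophage and fibroblast markers also differed between the groups, while smooth muscle and endothelial markers had no call. Over all genes 3.17% were called higher in mdx than in normal muscle and 7% lower in fiona than in mdx. Of 10 macrophage markers, 8 were higher in mdx than in normal muscle, among them Mpeg1 by 5.36 and Tyrobp by 5.31, and 9 were lower in fiona than in mdx, at medians of 3.21 and -2.92. The log2 of their summed level was 8.77 to 10.55 in fiona, 12.00 to 13.54 in mdx and 8.93 to 10.30 in normal muscle. Of 7 fibroblast markers, 2 were higher in mdx than in normal muscle and 6 lower in fiona than in mdx, at medians of 1.00 and -1.57, with a log2 summed level of 11.71 to 13.72 in fiona, 14.04 to 14.90 in mdx and 13.01 to 14.02 in normal muscle. Mdx 4, the mdx array with the highest Myl4 value, had the lowest summed macrophage level of the mdx arrays, 12.00. By the mean log2 value of the macrophage markers, mdx 2 was lowest (6.71, against 6.97 on mdx 4). Mdx 2 was also the mdx array with the lowest Myl4 value. The part of these cells in the light chain differences was not tested.

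Heart muscle genes were checked because Myl2, Myl3, Myl4 and Myl7 are heart chains. Of 12, Nppa, Nppb, Tnni3, Tbx5, Gata4, Nkx2-5 and Hand2, 7 in all, were at or under the control level on every array. Sln, a calcium pump regulator of atrium and of young skeletal muscle, was the 1 gene called in mdx minus normal, at 4.94. In fiona minus mdx 10 were called higher and Sln lower, 6 of those 10 among the genes at or under the control level. Over all genes 33.9% were higher in that comparison, and of probe sets at or under the control level 72.4% were called, so this count is not a result about the heart genes. Smooth muscle (8 measured) and endothelial markers (7 measured) had 0 limma calls in all 3 comparisons. In mdx minus normal 3 and 1 of them stood at an unadjusted limma p under 0.05, against 3918 of all 22626 probe sets. These counts were 1 and 1 in fiona minus mdx, against 11445, and 0 and 0 in fiona minus normal, against 5154. Adipocyte markers (5 measured) had 0 calls in mdx minus normal. In fiona minus mdx 2 of them were higher, Cidec by 0.17 and Lep by 0.14, where 33.9% of all genes were higher.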

How the data were processed

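The deposited values are log2 expression per probe set, and the authors used RMA and GCRMA, per the submitters' processing notes; which of them gave these values, and the genome build, are not given in the sources used here. Such values have no read depth, so the number of arrays limits the precision. The table held 22690 probe sets, from which 64 Affymetrix controls were left out. Of the 22626 tested, 691 had several gene symbols and 1555 none, and no gene was named from these. A gene stands for its probe set with the highest mean. One limma 3.58.1 fit (R 4.3.3) with a mean per group covered all 17 arrays, with Benjamini-Hochberg adjustment over all probe sets and a threshold of 0.05, and was tested on simulated data. Exact permutation tests over arrays stand beside single probe sets. The members and gene lists were chosen with earlier results of these data known. Named genes were all members, Dmd, Utrn, up to 4 called genes of a list with the largest mdx minus normal difference, and for each member with a call the 3 genes nearest in profile; others named were chosen after their values were seen. Deviations from the group means correlated between mdx and normal arrays of the same number at 0.107 to 0.603. These arrays also fell in the same array set, and arrays of unlike numbers were not compared in this way. The numbers are not stated to mark a shared animal, litter or day, so whether they pair arrays is not known. The replicate block served only as an alternative. For fiona the correlations were -0.420 to 0.295 with mdx and -0.512 to 0.485 with normal. No 2 arrays held identical values (correlations of 0.939 to 0.996).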

Additional observations from a re-analysis of the deposited data

Results flagged for a closer look

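In 3 of 30 groups of arrays, 1 array stood far from the others by Dixon's criterion, which chance flags in about 1 group in 20. Fiona 5 read 4.63 on Myl4 1457126_at, where the other fiona arrays read 3.87 to 4.01. On the same probe set normal 6 read 3.73, against 3.84 to 3.91 on the other normal arrays. Mdx 1 read 4.83 on Myl3 1427769_x_at, against 2.31 to 3.17 on the other mdx arrays, and it was the highest mdx array on the other Myl3 probe sets too.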

How the results depend on the processing

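Of the light chain results under the alternatives tried, Myl4 1422580_at was called in mdx minus normal in all of them and in fiona minus mdx in all but array set 2 alone, where the difference was -3.65 (limma adjusted p = 0.0614). The mdx minus normal count of 4 became 2 with 1 brightest probe set per gene and 2 with the mean of a gene's probe sets, which both count genes, 1 in array set 2 alone and 6 in array set 1 alone (Myl2 and Myl6b added). The fiona minus mdx count of 5 became 2 on median-centred values, 2 on quantile-normalised values, 3 with a filter on dim probe sets (above the control level on at least 5 arrays), 3 with the replicate block, 6 with the array set as a block (Myl3 1428266_at added), 0 in array set 2 alone and 1 without the arrays against their labelled sex. The last of these gave 1 call in fiona minus normal, Myl3 1428266_at at -3.30 (limma adjusted p = 0.0215) with a single fiona array, assumed to vary like the other groups. Leaving out 1 array at a time gave 2 to 4 calls in mdx minus normal (2 without normal 5), 3 to 6 in fiona minus mdx (3 without fiona 3, fiona 5 or mdx 5) and 0 to 1 in fiona minus normal (1 without fiona 2, Myl6b). Apart from the dim filter and the per-gene counts, the causes were not tested.

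The mean of the Myl4 probe sets differed by 2.61 in mdx minus normal, since the second probe set differed by 0.00. With the replicate block the mdx minus normal count was again 4, and in the mdx and normal arrays alone, a fit chosen after seeing the data, it was 3. Values raised to the control level, and the arrays without fiona 2 and 5, were also tried after seeing the data and gave counts of 4, 5 and 0 each.

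Signs turned in these cases. On median-centred values fiona minus mdx was -0.084 for Myl1, -0.000106 for Myl6b and -0.026 for Myl7, and fiona minus normal was -0.078 for Mylpf, -0.014 for Myl6b and -0.029 for Myl7. On quantile-normalised values Myl1 was 0.054 in mdx minus normal and -0.11 in fiona minus mdx. In array set 1 alone Myl4 1457126_at was -0.032 in mdx minus normal, and in fiona minus normal Myl4 1422580_at was -0.22 and Mylpf -0.14. In array set 2 alone Myl7 was 0.015 in mdx minus normal, Mylpf 0.069 in fiona minus mdx and Myl2 0.28 in fiona minus normal. Without the arrays against their labelled sex Myl4 1457126_at was -0.023 in mdx minus normal, Myl3 1428266_at -0.99 in fiona minus mdx, and in fiona minus normal Myl4 1422580_at was -0.47, Myl1 0.13 and Mylpf -0.11. Without fiona 2 and 5 Mylpf was -0.044 in fiona minus normal. Leaving out 1 array at a time moved Mylpf from -0.033 to 0.075 in fiona minus normal, Myl1 from -0.0056 to 0.072 in fiona minus mdx and Myl4 1457126_at from -0.025 to 0.012 in mdx minus normal.

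Over all probe sets the fiona minus mdx count of 9516 became 2473 on median-centred values, 3363 on quantile-normalised values, 3841 with the dim filter, 4529 with the replicate block, 122 in array set 2 alone and 3169 without the arrays against their labelled sex. The mdx minus normal count of 913 became 1920 with the array set as a block, 6032 and 381 in array sets 1 and 2 alone, and 545 without the arrays against their labelled sex. The fiona minus normal count of 1 became 2147 without fiona 2 and 1013 without the arrays against their labelled sex.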
